A study of Mus musculus with 6 samples.

Results

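The 45 genes described here encode the antioxidant, glutathione and metallothionein machinery of the cell, and were chosen by name from a list. A gene counted as measured where a row of the deposited table carried its symbol alone, and 42 of the 45 did, out of 19938 such genes in all. G6pdx, Prdx5 and Prdx6 had none and were not analysed here. The cells came from the brains of OF1 mouse embryos at embryonic day 17 and differentiated in fetal calf serum into primary cultures that mix neurons and glia. Of the 6 arrays, 3 were hybridised with RNA from cultures given vehicle (control) and 3 with RNA from cultures given 1,25-dihydroxyvitamin D3, the active hormone form of vitamin D (1,25D), at 10 nM. All cultures were in serum-free medium without growth factors at that point. How long the treatment lasted was not stated in the labels. The labels call the 3 arrays of a group biological replicates numbered 1 to 3, without saying whether embryos were pooled or whether equal numbers mark a shared preparation. The p-values therefore reflect the scatter of these 6 cultures, part of which may be technical.

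Cells remove superoxide with superoxide dismutases, and the hydrogen peroxide that results with catalase, glutathione peroxidases and peroxiredoxins. The peroxidases are recharged by glutathione and thioredoxin, which in turn draw on NADPH from the pentose phosphate pathway. The transcription factor NRF2 (Nfe2l2) is held low by KEAP1 and, when oxidants or electrophiles disable KEAP1, raises many of these enzymes through antioxidant response elements. Metallothioneins are small cysteine-rich proteins that bind zinc and copper, and the metal-sensing factor MTF1 drives them through metal response elements. In brain, astrocytes are known as the main source of exported glutathione and of metallothioneins 1 and 2.

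The promoters of 4 members show these elements, and are printed so that the elements can be seen in NRF2 targets and in the metallothioneins. Each is the 250 bases before the RefSeq start (build GRCm38.p6), 5′ to 3′ along the gene, with every match to either motif core in capitals on whichever strand it lies.
Gclm, chr3:122245307-122245556, plus strand: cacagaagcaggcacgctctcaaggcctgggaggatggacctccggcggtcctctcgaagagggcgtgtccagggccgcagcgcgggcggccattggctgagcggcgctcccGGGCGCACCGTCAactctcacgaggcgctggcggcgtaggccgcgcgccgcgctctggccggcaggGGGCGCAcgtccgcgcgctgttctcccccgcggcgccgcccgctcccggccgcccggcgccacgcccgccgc
Txnrd1, chr10:82858956-82859205, plus strand: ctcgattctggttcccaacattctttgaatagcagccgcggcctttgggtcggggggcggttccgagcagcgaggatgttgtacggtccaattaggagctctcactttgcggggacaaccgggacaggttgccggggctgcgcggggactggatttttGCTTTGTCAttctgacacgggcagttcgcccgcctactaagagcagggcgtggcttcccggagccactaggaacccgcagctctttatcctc
Mt1, chr8:94178839-94179088, plus strand: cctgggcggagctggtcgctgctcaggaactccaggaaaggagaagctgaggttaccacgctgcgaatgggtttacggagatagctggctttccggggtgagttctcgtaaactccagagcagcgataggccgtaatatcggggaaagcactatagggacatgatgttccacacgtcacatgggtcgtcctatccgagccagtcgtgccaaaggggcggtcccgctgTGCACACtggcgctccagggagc
Mt2, chr8:94172368-94172617, plus strand: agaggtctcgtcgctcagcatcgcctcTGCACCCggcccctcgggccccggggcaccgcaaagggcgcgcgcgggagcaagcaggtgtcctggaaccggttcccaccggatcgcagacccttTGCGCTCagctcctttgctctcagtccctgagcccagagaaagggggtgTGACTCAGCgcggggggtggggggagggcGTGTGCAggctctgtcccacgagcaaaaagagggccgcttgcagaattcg
The antioxidant response element core was searched as TGACNNNGC and the metal response element core as TGCACNC or TGCGCNC, on both strands. In Gclm the first capital run holds an antioxidant core at 134 to 126 bases before the start and a metal core at 138 to 132 that overlaps it, and the second a metal core at 72 to 66. The window of Txnrd1, 1 of 3 listed for that gene, holds an antioxidant core at 92 to 84. Mt1 has 1 metal core, at 23 to 17 bases before the start. Mt2 has 3 metal cores, at 223 to 217, 128 to 122 and 50 to 44, and an antioxidant core at 79 to 71. Of the 45 genes, 39 had a promoter in the RefSeq table, and 9 of those (23.1%) held an antioxidant core, against 11.5% of all genes in it. The 4 printed all hold a match to a motif, whereas Nqo1, Srxn1 and Osgin1, also known NRF2 targets, had no antioxidant core in this window. A metal core was present in 10 of the 39 (25.6%), against 23.8% of all genes. A match is a string of letters and was not tied to binding here.

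Values are log2 intensities after robust multi-array averaging (RMA), and since probes differ in brightness they are compared within a gene, not between genes. Over all genes the array medians ran from 7.91 to 7.98 and the array lower quartiles from 6.69 to 6.86. Every measured member had a control mean of 7.86 or more, above that quartile, so none was among the dimmest genes. Markers of the cell types named in the labels were present: all 7 astrocyte markers and all 6 neuron markers examined lay above the lower quartile. Over all genes, arrays with equal replicate numbers deviated together, and the number is used as a block where stated. Over the 42 members those correlations were 0.58, 0.72 and 0.18 for numbers 1 to 3, the last below the 0.43 between control 2 and 1,25D 3. The 2 arrays numbered 1 also held exactly identical values for 1094 genes (5.49%), against at most 19 genes for any other 2 arrays; no member was among them. RMA arrays have no value of 0 and no detection call.

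No member rose or fell between 1,25D and control cultures in the fit over all genes (limma, Benjamini-Hochberg adjusted p under 0.05). Over all genes 0.0251% were called. The lowest adjusted p among the 42 was 1.00, and 1 member, Gpx3, which was lower, had an unadjusted p under 0.05, beside 1.48% of all genes (0.953% higher, 0.527% lower). With the replicate number as a block the count called was again 0, beside 0.0903% of all genes, and the lowest adjusted p was 0.75. In that fit 5 members had an unadjusted p under 0.05, with Gss, Slc7a11 and Tkt higher and Sod3 and Gpx3 lower, which is 11.9% of the members beside 5.78% of all genes (3.16% higher, 2.61% lower). The median difference over the members was 0.025 on the log2 scale, beside 0.0074 over all genes, with 26 members above 0 and 16 below. For 31 members the 95% interval of the difference, not adjusted for the number of genes, lay within 1.5-fold in both directions. That is 73.8% of the members, beside 88.1% of all genes. The intervals of the remaining 11 members reached past 1.5-fold on at least one side: Gss, Slc7a11, Nqo1, Hmox1, Srxn1, Osgin1, Sod3, Gpx3, Gpx4, Gstp1 and Ftl1.

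**Figure D1:**
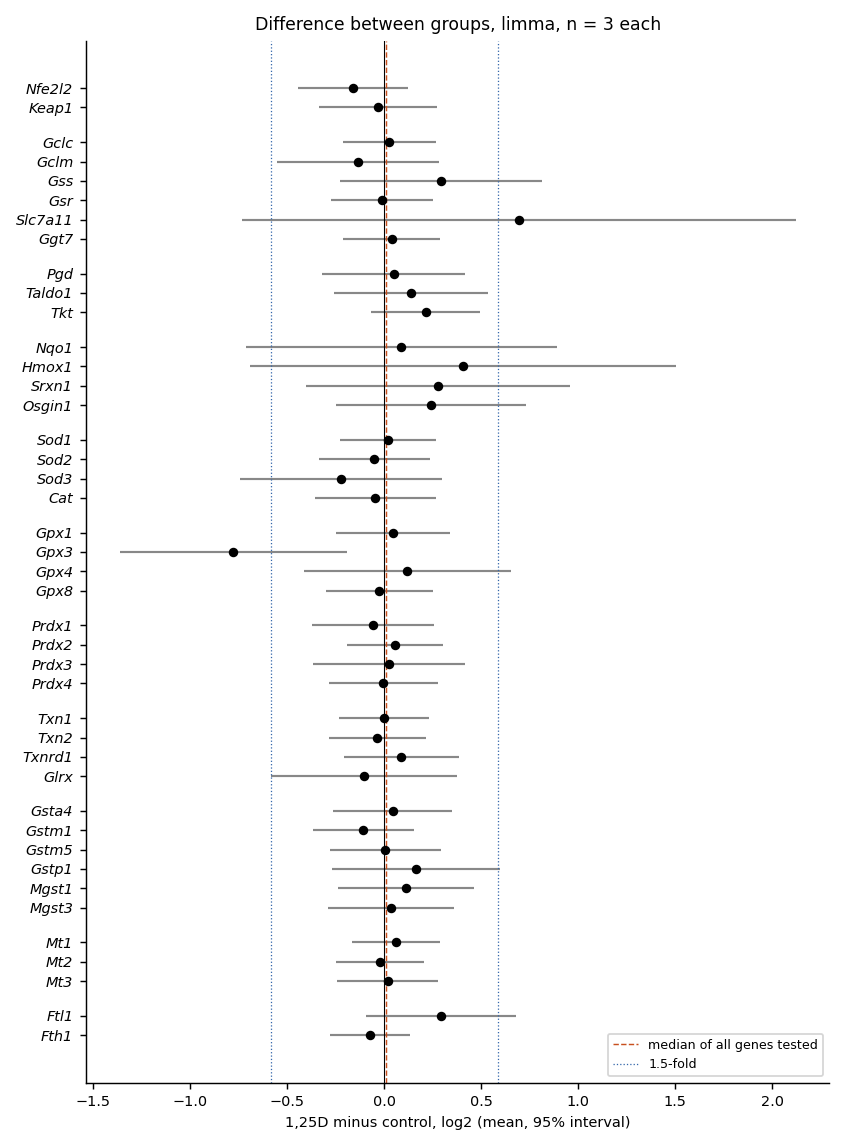
Difference between 1,25D and control cultures for the 42 measured members (log2 scale, points are differences of means, bars 95% intervals from limma, n = 3 each; dashed line, median of all genes; dotted lines, 1.5-fold). Most intervals straddle 0 and lie inside the dotted lines; that of Gpx3 lies wholly below 0, and those of Slc7a11 and Hmox1 are the widest.

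Neither regulator passed the test. Nfe2l2, which encodes NRF2, read 11.886, 11.997 and 12.116 in control cultures 1 to 3 and 12.007, 11.656 and 11.852 in 1,25D cultures 1 to 3. The groups overlapped, and the log2 difference was -0.16 ± 0.12 (SE, 95% interval -0.44 to 0.12). Keap1, the adaptor that sends NRF2 for degradation, read 9.20, 8.90 and 8.78 in control and 9.00, 8.97 and 8.81 in 1,25D cultures, a difference of -0.03 ± 0.13 (SE).

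Among the 6 genes of glutathione synthesis and recycling none passed the test, and the cystine supply gene varied far more than the enzymes. Slc7a11, the transporter that imports cystine in exchange for glutamate, read 9.41, 8.38 and 8.32 in control and 10.89, 8.95 and 8.35 in 1,25D cultures. Both cultures numbered 1 were high, both numbered 3 low, and the groups overlapped. The mean was 1.62-fold that of control, with a log2 difference of 0.69 ± 0.61 (SE) and an interval from -0.73 to 2.12 without the block. With the block the interval was 0.10 to 1.28 and the adjusted p 0.81. Without the 1,25D culture numbered 1 the difference was -0.05, and without both cultures numbered 1 it was 0.30.

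Gclc and Gclm encode the catalytic and modifier subunits of glutamate-cysteine ligase, the first step of glutathione synthesis. Gclc read 11.31, 11.22 and 11.41 in control and 11.38, 11.41 and 11.23 in 1,25D cultures, a difference of 0.03 ± 0.10 (SE). Gclm read 11.16, 11.35 and 11.53 in control and 11.56, 11.17 and 10.90 in 1,25D cultures, so its highest and lowest values both came from 1,25D cultures. By number the difference ran from 0.40 for number 1 to -0.63 for number 3 in Gclm, and from 0.19 for number 2 to -0.18 for number 3 in Gclc. Gss, glutathione synthetase, read 9.02, 8.74 and 8.61 in control and 9.59, 8.76 and 8.88 in 1,25D cultures. Each 1,25D culture was above the control of its number, by 0.58, 0.02 and 0.28, but the groups overlapped (difference 0.29 ± 0.22, SE; adjusted p = 0.86 with the block, limma). Without the 1,25D culture numbered 1, but with its control kept, the difference was 0.03. That control was the highest, and numbers 2 and 3 taken alone were still higher by 0.02 and 0.28. Gsr, which regenerates reduced glutathione, and Ggt7, a member of the gamma-glutamyltransferase family, had differences of -0.01 ± 0.11 and 0.04 ± 0.11 (SE).

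The 4 genes of quinone, haem and sulfiredoxin defence, all known NRF2 targets, had higher means in 1,25D cultures, and none passed. Hmox1, haem oxygenase 1, which breaks down haem, read 10.55, 9.97 and 11.22 in control and 12.05, 10.57 and 10.35 in 1,25D cultures. The highest value was the 1,25D culture numbered 1 and the second highest the control numbered 3. Its log2 difference was 0.41 ± 0.47 (SE, 95% interval -0.69 to 1.50), and without the 1,25D culture numbered 1 it was -0.12. Srxn1, sulfiredoxin, which repairs overoxidised peroxiredoxins, read 9.50, 9.20 and 9.32 in control and 10.36, 9.38 and 9.11 in 1,25D cultures. The 1,25D culture numbered 1 was above the other 5 arrays, and the difference of means was 0.28 ± 0.29 (SE). With that culture left out it was -0.09. Osgin1, an oxidative stress-induced growth inhibitor, had means of 8.04 ± 0.22 in control and 8.28 ± 0.41 in 1,25D cultures (SD, n = 3 each). Nqo1, a quinone reductase, read 8.37, 8.28 and 7.32 in control and 8.49, 8.29 and 7.45 in 1,25D cultures. Both cultures numbered 3 were low by about the same amount, and within numbers the difference was 0.12, 0.02 and 0.13.

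The ferritin subunits store iron, which haem oxygenase releases. Ftl1, the light chain, read 12.37, 12.31 and 12.37 in control and 13.01, 12.58 and 12.34 in 1,25D cultures, so that the controls were close together while the 1,25D cultures spread over both sides of the highest control. Its difference was 0.29 ± 0.17 (SE, 95% interval -0.09 to 0.68), and 0.11 without the 1,25D culture numbered 1. Fth1, the heavy chain, had means of 13.66 ± 0.04 and 13.59 ± 0.04 (SD, n = 3 each) and a difference of -0.07 ± 0.09 (SE).

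Taken by replicate number, counted after the values were seen, the members at least 1.5-fold apart were not the same, and did not point the same way, in every number. In number 1, Hmox1 (2.82-fold), Slc7a11 (2.79-fold), Srxn1 (1.81-fold), Ftl1 (1.56-fold) and Osgin1 (1.53-fold) were higher with 1,25D and no member was lower. That is 5 of 42 members (11.9%), beside 1.09% of all genes, with 1.74% of all genes lower; 16 of the 19938 genes, Hmox1 included, had a difference in number 1 as large as its own. Below that bound in number 1, Gss was 1.49-fold, Gstp1 1.39-fold, Gclm 1.32-fold and Mgst1 1.22-fold higher. Some members known as NRF2 targets were closer to their controls, with Nqo1 1.08-fold, Txnrd1 1.12-fold, Gsr 1.11-fold, Gclc 1.05-fold and Prdx1 1.02-fold higher. Others were slightly below their controls in number 1, such as Pgd (0.97-fold) and Fth1 (0.99-fold). By any amount, 25 of the 42 members were higher in number 1, beside 9787 of the 19938 genes. In number 2, Hmox1 alone was at least 1.5-fold higher (1.51-fold, beside 0.481% of all genes). In number 3 no member was higher (1.24% of all genes) and 3 were lower (7.14% beside 0.908% of all genes): Gpx3 by 3.10-fold, Hmox1 by 1.83-fold and Gclm by 1.55-fold. The SD of the differences over the 42 members was 0.38, 0.22 and 0.34 in numbers 1 to 3, beside 0.23, 0.19 and 0.23 over all genes. Each number holds 1 array a group, so these counts have no replicate check.

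**Figure D2:**
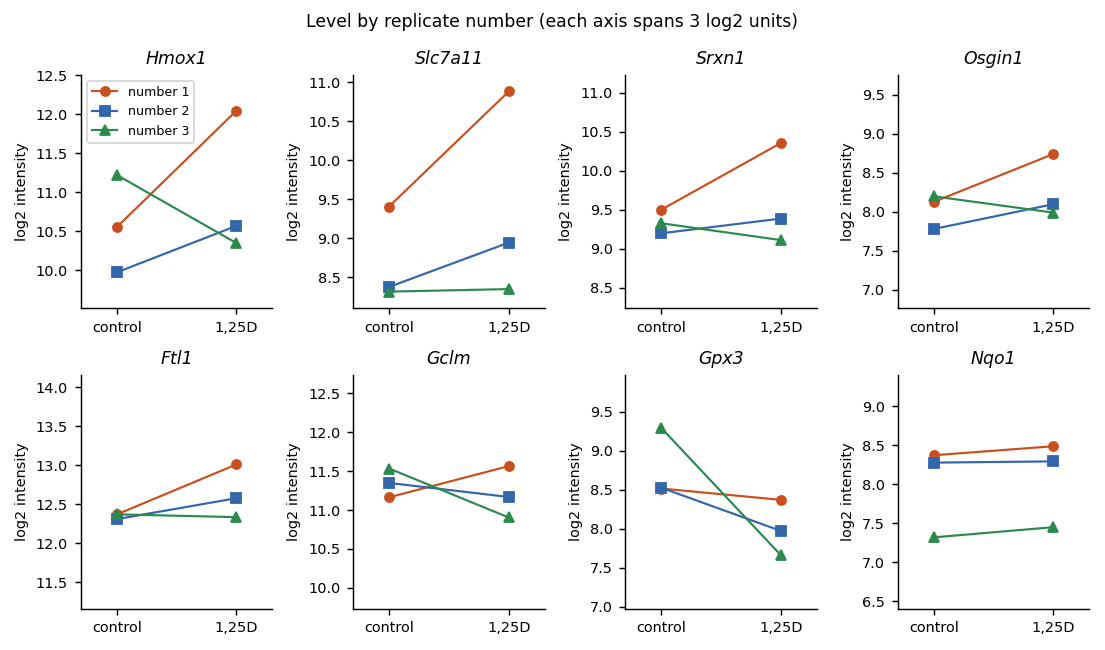
Log2 intensity of 8 members in control and 1,25D cultures, with a line joining the arrays of equal replicate number; every vertical axis spans 3 log2 units. Hmox1, Slc7a11, Srxn1, Osgin1 and Ftl1 climb in number 1, Hmox1, Gclm and Gpx3 decline in number 3, and Nqo1 keeps its level within each number.

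Cell type markers also differed within replicate numbers. In number 1, 7 of 7 astrocyte markers were lower with 1,25D, and their summed intensity went from 26793 to 20645. Of all 19938 genes, 9787 were higher and 1094 identical in number 1. In the neuron list 5 of 6 were lower and Stmn2 was identical, and the sum went from 2648 to 2046. The ependymal sum went from 3210 to 2272, while the 5 fibroblast markers were all higher, from 1447 to 1804. Of those 5, only 3 lay above the lower quartile of all genes. The endothelial sum went from 2140 to 1364 in number 1, with a log2 difference of -0.97 for Kdr but a median of -0.01 over the 5 markers, and from 1262 to 1580 in number 3. In number 2 the 5 fibroblast markers were also all higher, from 1229 to 1585, as were 7 of 7 microglia and macrophage markers, from 785 to 899. Of all genes 11410 were higher there. Only 3 of the 7 microglia and macrophage markers lay above the lower quartile of all genes. The astrocyte sum was 30242 and 30171 in number 2, and the neuron sum went from 3736 to 3131. In number 3, where Gpx3 was furthest apart, the astrocyte sum went from 19590 to 20702 while 4 of 7 markers were lower (median log2 difference -0.02). The neuron sum went from 3817 to 3588 while 3 of 6 markers were higher (median 0.09), with Stmn2 lower by 0.63 on the log2 scale. The ependymal sum, with 5 of 5 markers higher, went from 1586 to 2010.5. In number 2 it had gone the other way, from 2903.5 to 2543, with 0 of 5 markers higher. The fibroblast sum went from 1456 to 1395 in number 3, with 1 of 5 markers higher. The microglia and macrophage sum went from 812 to 802 there, with 4 of 7 markers higher. Over all cultures the astrocyte sum was 19590 to 30242 in control and 20645 to 30171 in 1,25D cultures, and the neuron sum 2648 to 3817 and 2046 to 3588. The microglia and macrophage sum was 785 to 850 and 802 to 924. The part of cell makeup in the differences above was not tested, and in such mixed cultures fewer cells of a type and less RNA per cell cannot be told apart.

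Superoxide dismutases and catalase did not pass, and the cytosolic and mitochondrial forms were steady. Sod1, the cytosolic copper-zinc enzyme, read 12.15, 11.98 and 12.03 in control and 12.13, 11.93 and 12.16 in 1,25D cultures, a difference of 0.02 ± 0.11 (SE). Sod2, the mitochondrial manganese enzyme, read 12.13, 12.04 and 11.88 against 12.13, 11.99 and 11.79, a difference of -0.05 ± 0.12 (SE). In both genes the difference between groups was smaller than the SD among the controls. Sod3, the extracellular form, read 8.55, 9.14 and 8.92 in control and 8.19, 8.91 and 8.84 in 1,25D cultures. Each 1,25D culture was below the control of its number, by 0.35, 0.23 and 0.09 on the log2 scale, yet the groups overlapped, and the mean difference was -0.22 ± 0.22 without the block (SE; adjusted p = 0.85 with it, limma). Omitting the 1,25D culture numbered 1, with its control kept, brought it to 0.0038. Both cultures numbered 1 were the lowest of their groups, and numbers 2 and 3 taken alone were still lower by 0.23 and 0.09. Cat, catalase, read 11.63, 11.70 and 11.45 in control and 11.69, 11.66 and 11.30 in 1,25D cultures, with both cultures numbered 3 lowest.

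Gpx3, the secreted glutathione peroxidase, was the single member whose groups did not overlap, beside 4.15% of all genes with groups apart (2.63% higher, 1.52% lower). It read 8.51, 8.52 and 9.29 in control and 8.37, 7.97 and 7.66 in 1,25D cultures. The control culture numbered 3 was the highest and the 1,25D culture numbered 3 the lowest. The mean went from 8.78 ± 0.44 to 8.00 ± 0.36 (SD, n = 3 each), a log2 difference of -0.78 ± 0.25 (SE, 95% interval -1.36 to -0.19), or a 1.71-fold lower mean. The unadjusted p was 0.016 (limma across all genes, n = 3 each), and 1.00 after adjustment. In the blocked fit these were 0.021 and 0.75 (limma). Without moderation of the variance the unadjusted p of limma's linear model was 0.078, so that no member was under 0.05. By number the difference was -0.15, -0.55 and -1.63, and 3 of the 19938 genes, Gpx3 included, had a difference in number 3 as low as that. Without both cultures numbered 3 it was -0.35, and without both numbered 1 it was -1.09 (adjusted p = 0.085, limma with the block). Gpx3 stayed below 0 in all 18 alternative settings run. Since its groups were apart, leaving arrays out could not have changed that sign.

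The intracellular glutathione peroxidases showed no such difference. Gpx1, the cytosolic selenoenzyme, read 11.42, 11.37 and 11.14 in control and 11.51, 11.39 and 11.17 in 1,25D cultures. Gpx4, which reduces lipid peroxides in membranes, read 11.18, 10.68 and 10.52 in control and 11.31, 10.85 and 10.57 in 1,25D cultures. Both followed the replicate number, and their differences were 0.04 ± 0.13 and 0.12 ± 0.23 (SE). The second row of Gpx4 gave 0.10. Gpx8, an endoplasmic reticulum form, had a difference of -0.03 ± 0.12 (SE).

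Peroxiredoxins and thioredoxins, which reduce peroxides through reactive cysteines, stayed close to their control levels. The 4 measured peroxiredoxins, Prdx1 to Prdx4, had differences between -0.06 and 0.06, and 0 of 4 passed. Prdx1 and Prdx2 each had a second row, with differences of -0.04 and 0.00. The 2 rows of Prdx2 had control means of 12.79 and 10.04, so for this gene the level depends on the row. Txn1, cytosolic thioredoxin, had means of 13.52 ± 0.08 and 13.52 ± 0.10 (SD, n = 3 each) and an interval of its difference from -0.23 to 0.23. Txn2, its mitochondrial counterpart, had a difference of -0.04 ± 0.11 (SE). Txnrd1, the reductase that recharges thioredoxin and an NRF2 target, read 9.74, 9.52 and 9.96 in control and 9.90, 9.78 and 9.80 in 1,25D cultures. The 1,25D values lay inside the control range, and the difference was 0.09 ± 0.13 (SE). Glrx, glutaredoxin, had a difference of -0.10 ± 0.21 (SE).

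The suppliers of NADPH and the glutathione transferases also gave no call. Tkt, transketolase of the pentose phosphate pathway, read 9.68, 9.53 and 9.46 in control and 9.95, 9.76 and 9.60 in 1,25D cultures. Each 1,25D culture was above its control, by 0.28, 0.22 and 0.14, a mean difference of 0.21 ± 0.12 (SE). In the blocked fit its adjusted p was 0.83 (limma). Taldo1, transaldolase, was 0.01, 0.12 and 0.28 higher by number, and Pgd, which makes NADPH directly, had a difference of 0.05 ± 0.16 (SE). Higher values in all 3 numbers were found for 8 members (19.0%), beside 14.8% of all genes, and lower values in all 3 for 5 members (11.9%), beside 11.0%. The 6 glutathione transferases, which couple glutathione to electrophiles, had differences between -0.11 for Gstm1 and 0.16 for Gstp1. Gstp1 had means of 11.11 ± 0.12 and 11.27 ± 0.38 (SD, n = 3 each), and its 1,25D culture numbered 1 was 1.39-fold above its control. Gsta4, Gstm5, Mgst1 and Mgst3 had differences of 0.04 ± 0.13, 0.01 ± 0.12, 0.11 ± 0.15 and 0.03 ± 0.14 (SE). Close relatives of several members, such as the Gstm and Gstp genes, the ferritins and the metallothioneins, may share probe targets, which was not examined here.

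The 3 metallothioneins had differences close to 0 and the smallest median standard error of the role groups (0.098), and none passed the test. Mt1 read 13.26, 13.36 and 13.16 in control and 13.28, 13.40 and 13.29 in 1,25D cultures. Its difference was 0.06 ± 0.10 (SE), with an interval from -0.17 to 0.29. Mt2 read 13.96, 14.14 and 13.99 in control and 13.94, 14.07 and 14.03 in 1,25D cultures. Its difference was -0.02 ± 0.10 (SE), with an interval from -0.25 to 0.21. Mt3, the form known from brain, read 13.00, 13.11 and 12.96 in control and 12.89, 13.02 and 13.21 in 1,25D cultures, a difference of 0.02 ± 0.11 (SE) with an interval from -0.24 to 0.28. Mt1 and Mt2 were highest in the cultures numbered 2 in both groups. All 3 intervals lay within 1.5-fold in both directions on this scale. The control mean of Mt2 was 14.03, and the highest control mean of all genes tested was 14.07. RMA values carry no saturation flag, and whether such bright signals were compressed was not tested. Mtf1, the metal-sensing factor that drives Mt1 and Mt2, had a difference of 0.01 ± 0.11 (SE).

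**Figure D3:**
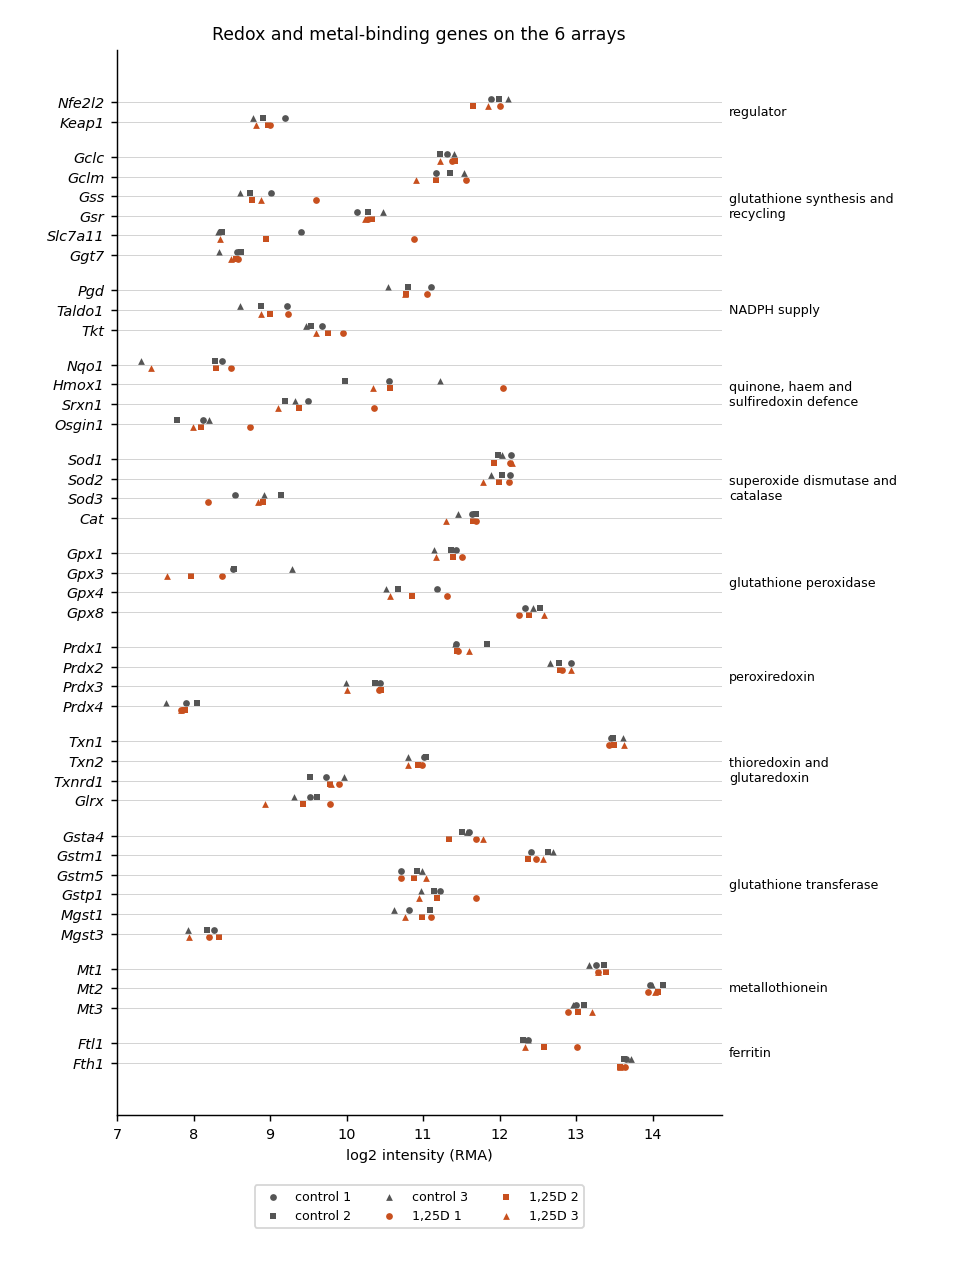
Log2 intensity (RMA) of the 42 measured members on each of the 6 arrays, grouped by role (grey, control; orange, 1,25D; circles, squares and triangles, replicate numbers 1, 2 and 3). The points of Mt1, Mt2, Mt3, Txn1 and Fth1 lie close together, Hmox1 and Slc7a11 spread widely, and the 2 triangles of Nqo1 lie apart from its other points.

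For most members, as for most genes, the larger part of the spread went with the replicate number and not the treatment. Splitting each gene's sum of squares over the 6 arrays, the median share of replicate number was 69.1% over the members and 65.5% over all genes, and the median share of treatment 4.05% and 7.28%. Replicate number has more levels than treatment, so its share tends to be larger even where neither matters. The share of replicate number was above 50% for 28 of 42 members (66.7%), beside 68.2% of all genes. It was 98.8% for Nqo1 and Prdx3, 98.3% for Txn1, 97.6% for Gstm5, 96.3% for Gpx1 and 95.5% for Gpx4. Prdx3, the mitochondrial peroxiredoxin, read 10.44, 10.38 and 9.99 in control and 10.43, 10.45 and 10.00 in 1,25D cultures, so like Nqo1 it was low in both cultures numbered 3. The share was 2.79% for Gclc, 3.84% for Gpx3 and 7.10% for Gclm. For Gpx3 the treatment took 58.2%, for Fth1 54.1% and for Tkt 43.9%. The control cultures alone spread most for Hmox1 (SD 0.63), Slc7a11 (0.61), Nqo1 (0.58), Gpx3 (0.44) and Gpx4 (0.35), against a median SD of 0.15 over the members and 0.15 over all genes. The difference between groups was smaller than the SD among controls for 32 of 42 members (76.2%), beside 78.5% of all genes.

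**Figure D4:**
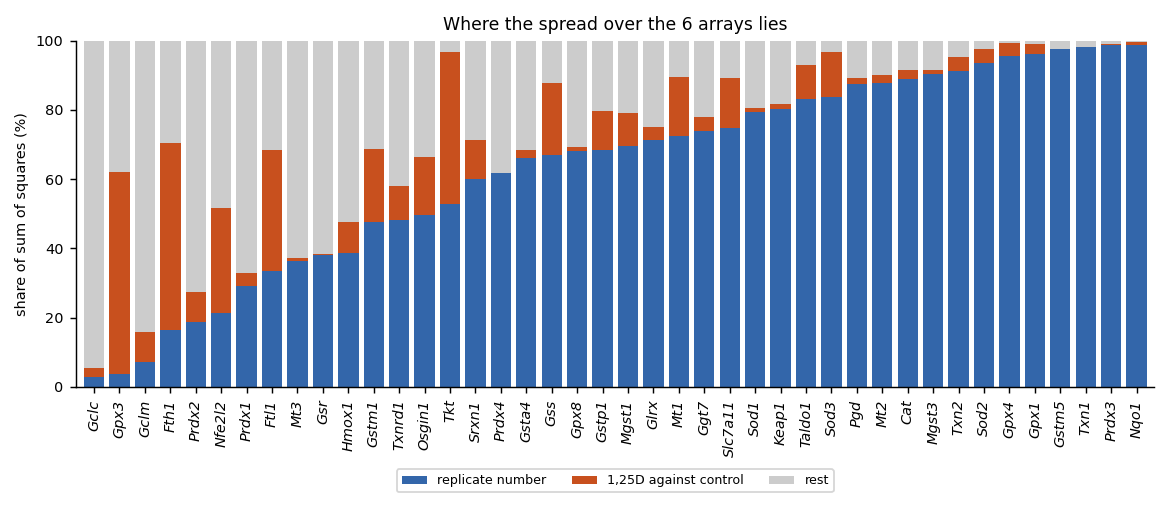
Share of each member's sum of squares over the 6 arrays (percent, bars from 0 to 100) that goes with replicate number (blue), with 1,25D against control (orange) and with the rest (grey), ordered by the blue share. The blue share runs from 2.79% for Gclc to 98.8% for Nqo1, and the orange share is largest for Gpx3 and Fth1.

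A wider list of redox and metal genes that holds no member gave no call either. Of 79 genes 76 were measured, and 0 rose and 0 fell (limma), with 2 (2.63%, beside 1.48% of all genes) at an unadjusted p under 0.05 without the block and 8 (10.5%, beside 5.78%) with it. The median difference was -0.01. The zinc importer Slc39a10 read 9.46, 9.29 and 10.16 in control and 10.82, 9.94 and 10.27 in 1,25D cultures. By number its difference was 1.37, 0.65 and 0.11. The same order was seen in several members, such as Slc7a11, Hmox1, Srxn1, Osgin1 and Ftl1. The mean difference of Slc39a10 was 0.71 ± 0.28 (SE, adjusted p = 1.00, limma). Groups were apart for 2 of the 76 genes, Duox2 and Gstm4 (2.63%, beside 4.15% of all genes). Duox2, an oxidase that makes hydrogen peroxide, read 6.67, 6.41 and 6.45 in control and 6.68, 6.70 and 6.75 in 1,25D cultures, with groups just apart and a difference of 0.20 ± 0.10 (SE). Its control mean of 6.51 lay below the lower quartile of every array, so it was among the dim genes. Slc30a1, a zinc exporter known as an MTF1 target, read 9.66, 9.72 and 9.24 against 9.85, 9.89 and 9.66, a difference of 0.26 ± 0.15 (SE) with overlapping groups. Among those with lower means, Gstm4, a glutathione transferase, read 9.08, 9.11 and 8.99 in control and 8.93, 8.67 and 8.77 in 1,25D cultures. Its groups did not overlap, and the difference was -0.27 ± 0.10 (SE, adjusted p = 1.00, limma). Nox4, an NADPH oxidase, read 6.75, 7.14 and 6.87 against 6.61, 6.62 and 6.76, a difference of -0.26 ± 0.12 (SE). Its 1,25D readings lay below the lower quartiles of their arrays (6.86, 6.79 and 6.78), so they were among the dim values. Gstz1, a transferase of tyrosine breakdown, read 8.70, 9.07 and 9.13 against 8.61, 8.79 and 8.82, a difference of -0.23 ± 0.14 (SE). Both overlapped between groups. The 8 NRF2 partners and repressors had differences between -0.01 for Mafg and 0.11 for Nfe2l1. Of 12 further NRF2-responsive enzymes, 7 were below 0 and 5 above, between -0.14 for Ugdh and 0.12 for Blvra. Ephx1 and Chac2 were among the genes with identical values in number 1. In number 1 Chac1, which degrades glutathione, Slc39a10 and Tfrc, the transferrin receptor, were at least 1.5-fold higher (3 of 76, 3.95%, beside 1.09% of all genes). Txnip, an inhibitor of thioredoxin, was that much lower (1 of 76, 1.32%, beside 1.74%). In number 2, Slc39a10 was 1.57-fold higher (1 of 76, 1.32%, beside 0.481% of all genes) and Txnip 1.52-fold lower (1.32%, beside 0.441%). In number 3, Tfrc was 1.76-fold lower (1 of 76, 1.32%, beside 0.908% of all genes) and no gene of the list was at least 1.5-fold higher (beside 1.24%).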

How the data were processed

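Gene expression was measured on 6 Affymetrix arrays, 3 a group. The deposited intensity values came from Affymetrix Expression Console, where the authors ran RMA (per the submitters' processing notes). Its version, the probe set level and any filter were not stated there. The deposited values are linear (8.05 to 22019), so log2 was taken. GEO's platform annotation gave 1 symbol for 21789 of 35556 rows, several for 1621, and left 12146 unnamed here. For the 999 genes with several rows, 3 members among them, the row with the highest mean log2 value was used. Members were matched to that annotation's symbols. No column belonged to another sample.

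1,25D was compared with control by limma 3.58.1 in R 4.3.3 (lmFit, eBayes without trend), adjusted over 19938 genes, without a fold minimum and keeping dim genes. With 3 arrays against 3, their number limits the precision. The fits were tested on simulated data. Equal replicate numbers were treated as pairs because deviations from group means correlated at 0.51, 0.65 and 0.46 over all genes, a hint from the data, not the labels. Genes given array by array were those with an unadjusted p under 0.05 in either fit, groups apart, the 5 largest differences, the 5 largest control SDs and a fixed set of 17; of the wider list, the 3 smallest p-values in each direction. Further genes (Prdx3, Chac1, Tfrc, Txnip, Mtf1, Ephx1, Chac2 and those of the counts by number) were added after their values were seen. The members and lists were chosen with earlier results of these data known. The alternatives were the replicate block, other scalings, filters, variance models and row choices, and the omission of arrays.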

Additional observations from a re-analysis of the deposited data

How the results depend on the processing

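No member and no gene of the wider redox list was called in any of the 18 alternatives (limma): the replicate block, quantile normalisation, median centring, omission of the dimmest 25% of genes, all rows tested, an intensity trend, no moderation, array weights, the mean of a gene's rows, and the omission of each array or, with the block, of each replicate number. The lowest adjusted p among the members was 0.085, for Gpx3 with the block and without both arrays numbered 1. The members' median difference of 0.025 ranged from -0.022 (without control replicate 3) to 0.072 (without 1,25D replicate 3) when arrays were left out, so its sign rests on single arrays; it was 0.065 with control replicate 1 omitted, -0.010 with 1,25D replicate 1 omitted, and 0.054 without both arrays of replicate number 2. The count of members with groups apart was 1 as reported, 2 after median centring (Gpx3 and Fth1), between 2 (without 1,25D replicate 2) and 7 (without control replicate 1) with 1 array left out, and between 5 and 10 with the replicate block and a replicate number left out, where groups separate more often (8.92% to 26.5% of all genes). Gpx3 was among them each time, which had to be so where arrays were left out, since its groups were already apart. With all arrays kept and no rescaling, groups were apart for 4.15% of all genes. Fewer arrays in a group make separation more frequent, so the higher counts were not read as a result about the members. The count after median centring is given without its share of all genes and was not read further either. The replicate block raised the members with an unadjusted p under 0.05 from 1 to 5 and the wider list's from 2 to 8, and changed no call. Without moderation of the variance that count was 0 for the members. Of the 22 members given array by array, 6 kept the sign of their difference in all 18 alternatives (Ftl1, Gpx3, Gss, Mt1, Nfe2l2 and Tkt), though not its size. Without 1,25D replicate 1, and with control replicate 1 kept, Gss went from 0.29 to 0.03 and Ftl1 from 0.29 to 0.11. Of 396 such values 2 moved by more than 1 SD. Many of them could not move. The replicate block, the omission of dim genes, all rows tested, the intensity trend and no moderation leave a gene's difference unchanged. In the fits that leave an array out, a group is left with 2 arrays. Groups of 3 were not searched for outlying samples.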
